A study of Bos taurus and Sus scrofa with 10 samples.

Results

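The morula of the cow (Bos taurus) was compared with the morula of the pig (Sus scrofa) by sequencing of total RNA. The comparison rests on 2 of 10 libraries. The other 8 are the oocyte, 2-4 cell, 8-16 cell and blastocyst stages of both species, at 1 library a stage, and were used to place each morula value in its own developmental course. The labels give the species and the stage of each library and name no breed, treatment, sex or number of embryos. Each species was deposited as its own table, scaled on its own, so genes were paired by identical symbols and compared by their percentile rank within the table of their own species. Of 22845 cow rows and 21867 pig rows, 13251 symbols formed a pair. Of these, 10047 had at least 1 read per 1000000 library reads (RPM) in one of both morula libraries and were compared, and 3204 lay below that level in both. With 1 library in each group no difference has a replicate check, and no p-value is given.

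The morula is the compacting ball of cells that comes before the blastocyst. At compaction the cells flatten against each other through cadherin-based junctions, outer cells gain an apical side, and Hippo signalling with the TEAD transcription factors separates future trophectoderm, the outer layer that contributes to the placenta, from the inner cells. Inner cells later part into the pluripotent epiblast and the primitive endoderm, and the trophectoderm pumps salt and water inward to open the cavity. The embryo's own genome is switched on at an earlier cleavage stage in pig than in cow, and maternal transcripts are cleared over the same period.

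The cow morula library held 3899291 reads and the pig morula library 3002751, within a range of 3002751 to 14182046 over the 10 libraries. Reads in gene rows made up 71.7% of the cow and 88.7% of the pig morula library, and rows of the mitochondrial genome took 9.15% and 16.3%. Rows at 1 RPM or more were about as many in both libraries, 11216 in cow and 11218 in pig. A row with 0 reads stood at percentile 21.7 in cow and 20.2 in pig, 20 RPM at 78.9 and 75.4, and 100 RPM at 92.7 and 91.1. A difference of nearly 80 points is therefore the most that 2 libraries of this depth can give, and it means a top gene in one species against 0 reads in the other. The floor that a count of 0 allows was 3 reads, which is 0.769 RPM at percentile 49.9 in cow and 0.999 RPM at percentile 47.6 in pig. The libraries were amplified and the labels' protocols mention no tags that mark single molecules, so floors and 95% Wilson intervals cover counting error only. Each library is a bulk sample, in which fewer cells of a type and less RNA per cell cannot be told apart.

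The rank order of genes was broadly shared. Spearman's rho across the 10047 genes was 0.617, a description across genes, which are not replicates. It was the highest of the 9 pairings between a morula library and a library of the other species: the cow 8-16 cell library reached 0.608 with the pig morula, and the others lay between 0.441 and 0.522. The median gene stood 10.2 points apart, and 49.6% of genes stood within 10 points. Of the 100 highest-ranked symbols of each library 37% were shared, and of the 1000 highest 52.3%. Unrelated lists of these sizes would share 0.755% and 7.55%.

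A gene was called different when its ranks stood 30 points or more apart. By this rule 866 genes (8.62%) ranked higher in the cow morula and 944 (9.4%) in the pig morula, together 1810 genes or 18%. At the edge of the rule, MYCL was just inside for cow at 39.2 RPM in cow and 2.66 RPM in pig, and TGM2 just outside at 29.7 and 2.00 RPM. ENSA was just inside for pig at 6.41 RPM in cow and 266 RPM in pig, and NAT9 just outside at 2.56 and 73.3 RPM. Most calls were genes without reads in one morula library: 704 of the 866 had 0 reads in pig, and 772 of the 944 had 0 reads in cow. With every count of 0 to 3 reads raised to the floor, 219 genes (2.18%) stayed called for cow and 235 (2.34%) for pig. For 777 of the genes called for cow (7.73% of those compared) and 745 of those called for pig (7.42%), the 95% intervals of the ranks, taken from the read counts, did not overlap. Among the 5201 genes with 20 RPM or more in the higher library, 202 (3.88%) were called for cow and 300 (5.77%) for pig.

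**Figure D1:**
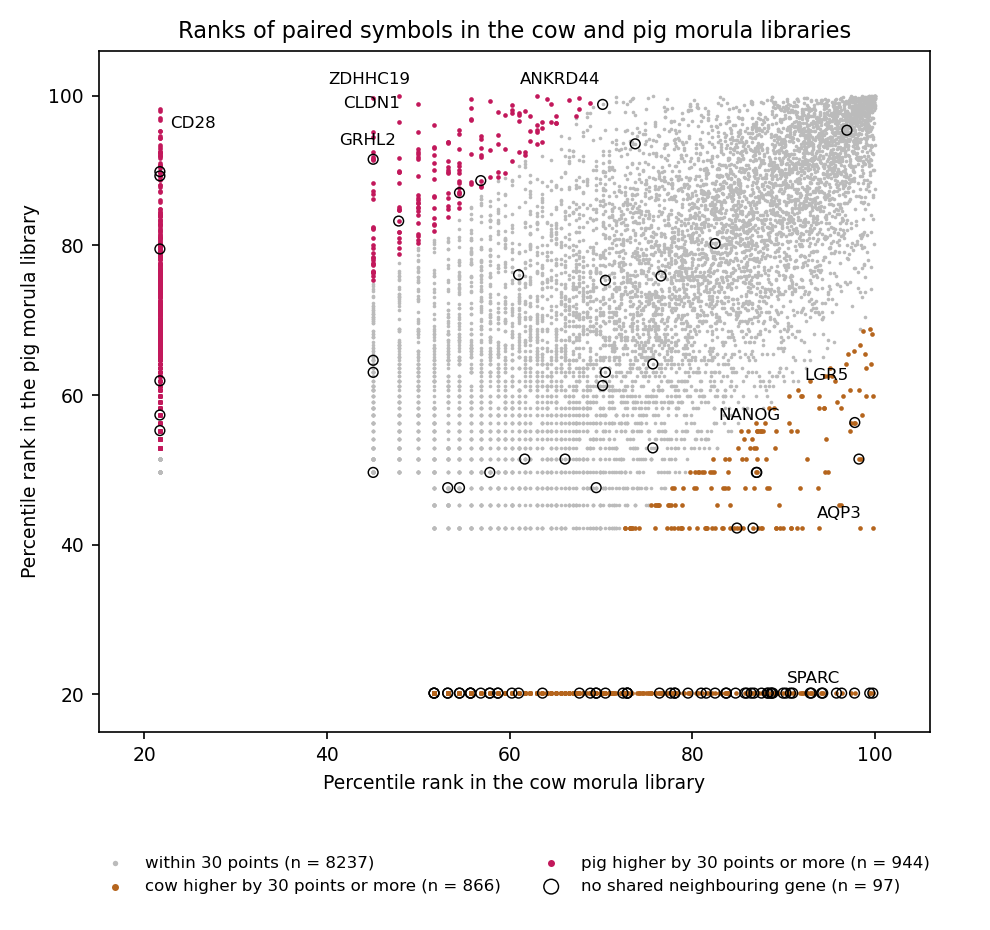
Percentile rank of each of the 10047 compared symbols in the cow morula library (horizontal axis) and the pig morula library (vertical axis). Coloured points stand 30 points or more apart (866 for cow, 944 for pig), black rings mark the 97 symbols without a shared neighbouring gene, and the bottom row and the left column of points are genes with 0 reads in one library.

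Rows that carry the same symbol were not always at the same place in both genomes. For each pair the 5 nearest paired symbols on either side in one table were looked up in the other, and 97 of the 10047 pairs (0.965%) had none of these 10 neighbours within 5 Mb, so their rows may not be the same gene. These pairs made up 67 of the 866 calls for cow (7.74%) and 10 of the 944 for pig (1.06%). They took 9 of the 15 largest differences for cow at 20 RPM or more. CALM2, HNRNPF, ARPP19, TMSB4X, UQCRFS1, RPL17, NDUFA4 and COX7B were among them. In pig the rows of all 9 spanned 135 to 4789 bases, against 2066 to 18595 in cow, and held 0 reads in all 5 pig libraries. CALM2, a calmodulin gene, stood at 957, 899, 870, 791 and 543 RPM from cow oocyte to blastocyst, beside a pig row of 591 bases at 0 throughout. Without such pairs the calls numbered 799 for cow (8.03% of 9950) and 934 for pig (9.39%). The genes described below share neighbours unless the text says otherwise.

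Among pairs with shared neighbours, the 15 largest differences for cow ran from 69.1 to 79.2 points, and all 15 genes had 0 reads in the pig morula. With the pig value at the floor they ran from 41.7 to 51.8 points. HIST1H2BB, a replication-type H2B histone gene, headed them at 552 RPM in the cow morula (95% interval 530 to 576), after 15.6, 12.6 and 239 RPM in the earlier cow stages and before 7.69 RPM in the cow blastocyst. The pig libraries held no reads for it except 0.242 RPM in the 2-4 cell library. A second H2B gene, HIST2H2BE, stood at 97.7 RPM in the cow morula and at 0 in all 5 pig libraries. For both histone genes the row was wider in cow, 4248 and 2323 bases, than in pig, where each spanned 381.

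SPARC encodes a secreted matrix glycoprotein made by primitive endoderm and its derivatives. From oocyte to blastocyst it stood at 2.64, 0.676, 9.20, 241 and 305 RPM in cow. All 5 pig libraries held 0 reads for it. The 2 late cow libraries were high and no pig library overlapped them; the ranks at the morula stood 77.2 points apart, or 49.7 with the pig value at the floor. The gene lies at chromosome 7, 64878194 to 64900828, in the cow table and at chromosome 16, 71368164 to 71380972, in the pig table.

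The other genes of this group had varied roles. IL18, a cytokine gene of the interleukin-1 family, stood at 126, 109 and 26.6 RPM in cow 8-16 cell, morula and blastocyst, and AMIGO2, a cell-surface adhesion gene, at 152, 105 and 4.23 RPM. Pig stayed at or below 0.536 RPM for IL18 and at or below 1.26 RPM for AMIGO2 at every stage. Both genes thus reached their level by the cow 8-16 cell stage. TRPV1, a heat-gated cation channel, stood at 92.1 RPM and URGCP at 90.8 RPM in the cow morula, with 0 reads in every pig library. TWF2, a twinfilin that binds actin monomers, stood at 121 RPM in the cow morula and 140 RPM in the cow blastocyst, and in pig it was read only in the blastocyst, at 9.12 RPM. RAB4A, a GTPase of endosome recycling, stood at 98.2 RPM in the cow morula and was present at 4.44, 9.18, 5.69 and 3.22 RPM in the other pig stages. ZNF394, ZAP70, ERICH5 and TGFBI were also among the 15, at 63.6 to 87.5 RPM in the cow morula.

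For pig, the 15 largest differences ran from 70.8 to 76.5 points, or 42.5 to 48.3 with the cow value at the floor, and all 15 genes had 0 reads in the cow morula. CD28 encodes a co-stimulatory receptor known from T cells. It stood at 1562, 2217, 2430, 349 and 3.22 RPM from pig oocyte to blastocyst, and all 5 cow libraries held 0 reads. CD3E, a T cell marker, was at 0 in both morula libraries, and PTPRC, a marker of all blood leukocytes, at 6.92 RPM in cow and 3.0 RPM in pig. The pig level of CD28 was thus highest before the morula and was lower by the blastocyst. CD28 was the only gene of the 15 with 0 reads in every cow library. It lies at chromosome 2, 92325180 to 92358568, in the cow table and at chromosome 15, 107127600 to 107162919, in the pig table, with similar spans of 33389 and 35320 bases.

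PDE7B, a phosphodiesterase that breaks down cyclic AMP, followed another course in pig, at 5.03, 29.0, 101, 321 and 97.3 RPM, while cow stayed at or below 0.811 RPM. CD3G, a chain of the T cell receptor complex, stood at 131, 121, 87.8, 250 and 327 RPM in pig and at 5.68, 9.24, 1.29, 0 and 0 RPM in cow. Its pig row spanned 71510 bases and its cow row 7172. USP43, a ubiquitin-specific protease gene, stood at 238 RPM in the pig morula, with 49.0 RPM before and 83.9 RPM after it. In cow it was at 0 in the morula alone, between 1.29 RPM at the 8-16 cell stage and 36.2 RPM in the blastocyst. COLEC11, a collectin that binds sugars, stood at 25.3, 178 and 521 RPM over the last 3 pig stages and at 1.29, 0 and 0 RPM in cow. ALDH1A2, the enzyme that makes retinoic acid, stood at 19.9, 119 and 53.1 RPM in pig and 1.66, 0 and 0.776 RPM in cow, and RETSAT, a retinol saturase, at 14.5, 124 and 116 RPM against 2.58, 0 and 3.31 RPM. The pig row of ALDH1A2 overlapped that of AQP9. LRRC4C, DHRS7C, SHANK2, C18orf63, DALRD3, PDZRN4 and SPRYD3 were also among the 15, at 118 to 178 RPM in the pig morula.

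**Figure D2:**
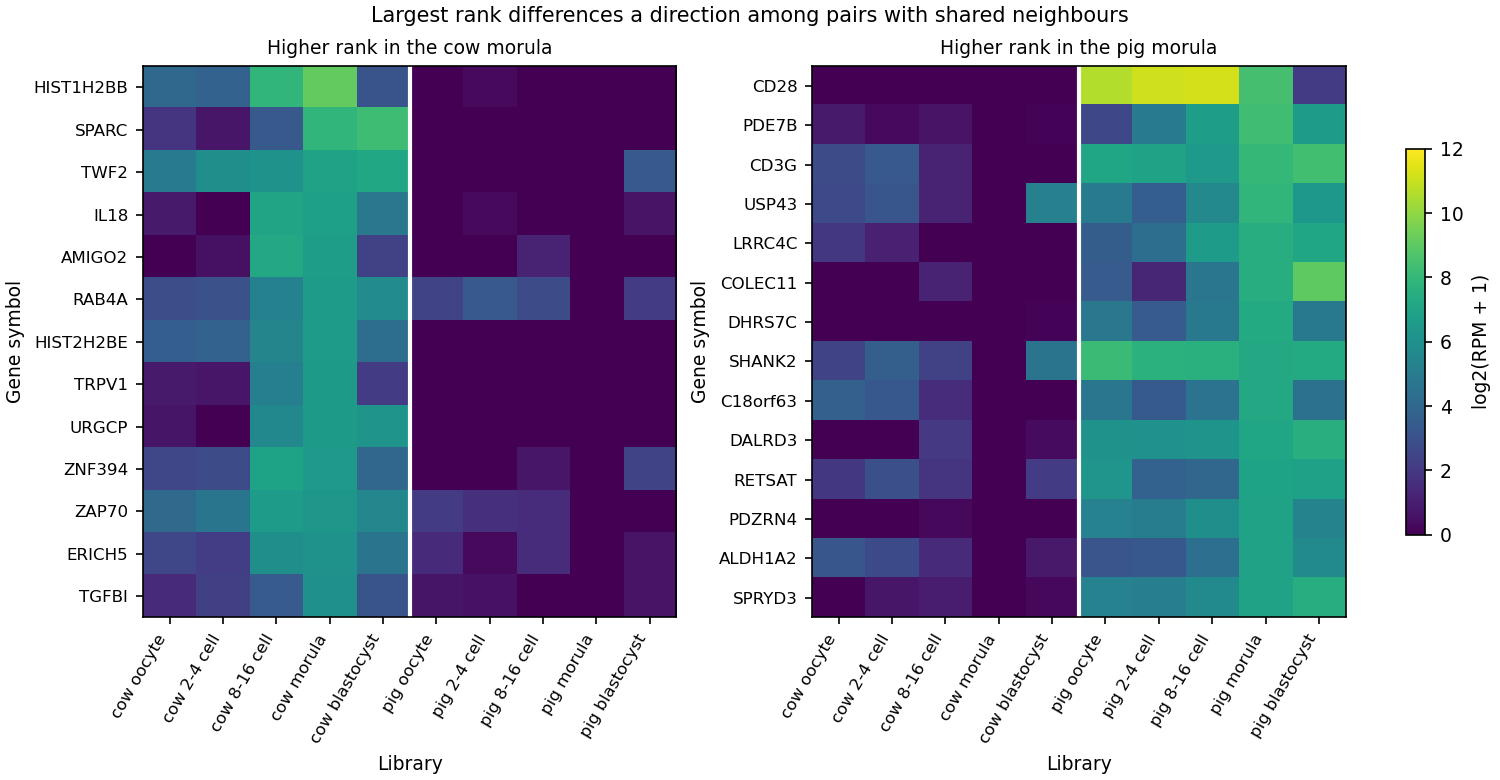
Level as log2(RPM + 1) of 13 of the 15 genes with the largest rank difference for cow (left) and 14 of the 15 for pig (right) among pairs with shared neighbours, in all 10 libraries; the white line parts cow from pig. In the left panel the pig morula column is at 0 for every gene shown, and in the right panel the cow morula column is.

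The width of the rows moved with the direction of the calls. The span in the cow table was a median 0.831 times that in the pig table over all compared pairs, 0.996 times for genes called for cow and 0.622 times for genes called for pig. Spans differed over 2-fold for 21.0% of all compared pairs and for 21.0% of those called for cow, but for 42.3% of those called for pig. All 15 leading pig genes had the wider row in pig, 9 of them over 2-fold. Of the 15 leading cow genes with shared neighbours, 4 had the wider row in pig, and for 6 the spans differed over 2-fold. Leaving out all pairs with such a difference gave 684 calls for cow (8.61% of 7942) and 545 for pig (6.86%). Whether reads within introns were counted is not given in the sources used here, and the part of row width in the result was not tested.

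Ranks are compressed at the top: fewer than 10 points are left above 100 RPM in either library, so closeness in rank among abundant genes does not show like levels. COX1, ATP8, ND5 and ND1, which the mitochondrial genome encodes, were among the 10 highest in both libraries, at 3539, 5096, 5519 and 2915 RPM in cow and 43141, 23610, 23153 and 7553 RPM in pig. The pig level was thus the higher for all 4, while their ranks could hardly differ. HNRNPA2B1 and HNRNPH1, which bind RNA in splicing, stood at 1074 and 908 RPM in cow and 1790 and 1363 RPM in pig. MED13L, of the Mediator kinase module, stood at 1298 and 1097 RPM and PRRC2C at 1029 and 1342 RPM.

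Other abundant transcripts also differed in level. ZDHHC19, a protein palmitoyltransferase gene, was among the 10 highest paired symbols of the pig morula at 3938 RPM, after 25.5, 23.4 and 82.1 RPM and before 75.9 RPM. In cow it stood at 0, 0, 0.184, 0.513 and 0.917 RPM. The pig morula library thus stood far above every other library for this gene, and the ranks stood 52.1 points apart; its pig row spanned 125205 bases and its cow row 12730. ANKRD44 stood at 633, 463, 682, 4607 and 3849 RPM in pig and 28.8, 53.4, 6.81, 4.10 and 42.5 RPM in cow, 37.0 points apart at the morula. SLC31A1, the high-affinity copper importer, stood at 3874 RPM in the pig morula and 535 RPM in the cow morula, which is 0.6 points in rank. ZCCHC6, a terminal uridylyltransferase, was among the 10 highest in cow at 2789 RPM, after 3911 RPM at the 8-16 cell stage, and stood at 133 RPM in the pig morula, 6.5 points apart.

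Most morula calls were not made at every stage. Of the 866 calls for cow, 290 were made at the morula alone of the 5 stages and 61 at all 5; of the 944 for pig, 318 and 72. The same call was made at the oocyte stage for 24.8% of the genes called for cow, at the 2-4 cell stage for 26.3%, at the 8-16 cell stage for 35.0% and at the blastocyst stage for 37.6%. For pig these shares were 26.5%, 30.1%, 40.3% and 34.4%. Over all genes compared at those stages, the calls for cow made up 11.1%, 10.4%, 8.21% and 11.4%, and the calls for pig 8.77%, 10.5%, 9.33% and 9.96%. Opposite calls at another stage were fewer, 18 to 39 of the genes called for cow and 14 to 57 of those called for pig.

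**Figure D3:**
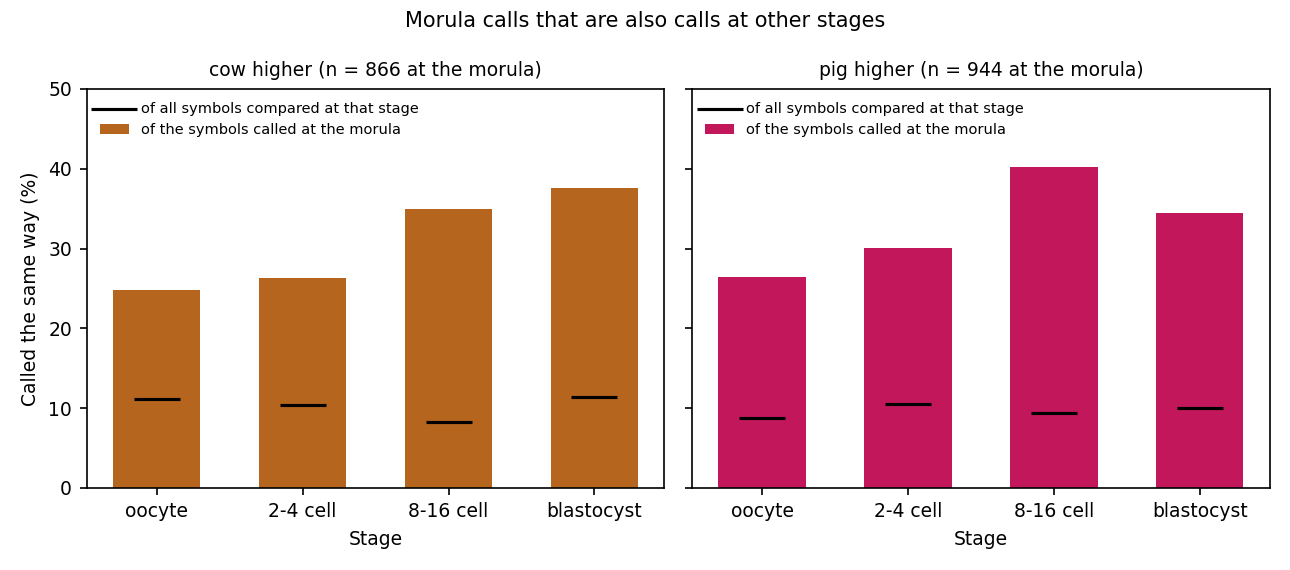
Share (%) of the genes called at the morula that are called the same way at each other stage (bars), for the 866 called for cow (left) and the 944 called for pig (right). The black lines give the share of all genes compared at that stage that are called this way (8.21% to 11.4%), and every bar lies above its line.

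The genes called for a species often had their highest level at its morula. In cow, 35.7% of the genes called for cow peaked at the morula, against 20.8% of all compared genes. In pig, 39.2% of the genes called for pig did so, against 26.9%. From the 8-16 cell stage to the morula, 145 of the genes called for cow (16.7%) were lower at least 4-fold on the log2(RPM + 1) scale in pig, beside 9.7% of all compared genes, and 121 (14.0%) were higher at least 4-fold in cow, beside 6.49%. For genes called for pig, 191 (20.2%) were higher at least 4-fold in pig, beside 12%, and 86 (9.11%) lower in cow, beside 4.54%. The rule that chose these genes used the morula values, so these shares are a description.

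The next genes are those whose morula difference exceeded the mean of the other 4 stages most, which allows a difference in the same direction at a single other stage. COL12A1, a collagen gene, stood at 1.01, 0.225, 9.39, 45.1 and 65.6 RPM in cow and 15.1, 23.0, 6.95, 0 and 0 RPM in pig. Pig was thus the higher in the oocyte and 2-4 cell libraries, and cow from the 8-16 cell stage on, with ranks 66.3 points apart at the morula and 68.2 at the blastocyst. HEPH, the ferroxidase hephaestin, stood at 4.05, 90.5 and 2.75 RPM over the last 3 cow stages and at 2.84, 0.333 and 0.536 RPM in pig. NME5 stood at 4.23, 54.6 and 0.423 RPM in cow and 2.53, 0 and 0 RPM in pig. Both were peaks of 1 cow library. PNLDC1, which trims piRNAs, stood at 53.6, 74.3, 4.60, 27.7 and 0.705 RPM in cow and 5.03, 1.93, 2.21, 0 and 1.34 RPM in pig. RAB4A, STX19, MARCH1, SEMA3C and PTGER3 were also of this group for cow, at 21.5 to 98.2 RPM in the cow morula.

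By the same measure for pig, ELOVL7, a fatty acid elongase, stood at 0, 5.32, 12, 83.9 and 0.268 RPM in pig and at 8.32, 9.01, 6.63, 0 and 0 RPM in cow. TLR3, a receptor for double-stranded RNA, stood at 0, 0.242, 7.26, 54.9 and 0 RPM in pig and 2.43, 0.901, 0, 0 and 0 RPM in cow. Both were single peaks at the pig morula. ASS1, the argininosuccinate synthase of the urea cycle, stood at 1.58, 47.0 and 132 RPM over the last 3 pig stages and at 0.736, 0 and 0.0705 RPM in cow. BCAT1, which starts the breakdown of branched-chain amino acids, stood at 0, 6.28, 17.1, 182 and 456 RPM in pig and at 34.5, 40.3, 19, 1.54 and 109 RPM in cow. The cow morula was thus the lowest cow library for BCAT1, while pig was higher at each stage than at the stage before. USP43, SYT17, TUBB6, PABPC5, GBX1 and AKAP4 completed the 10, at 21.6 to 238 RPM in the pig morula.

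**Figure D4:**
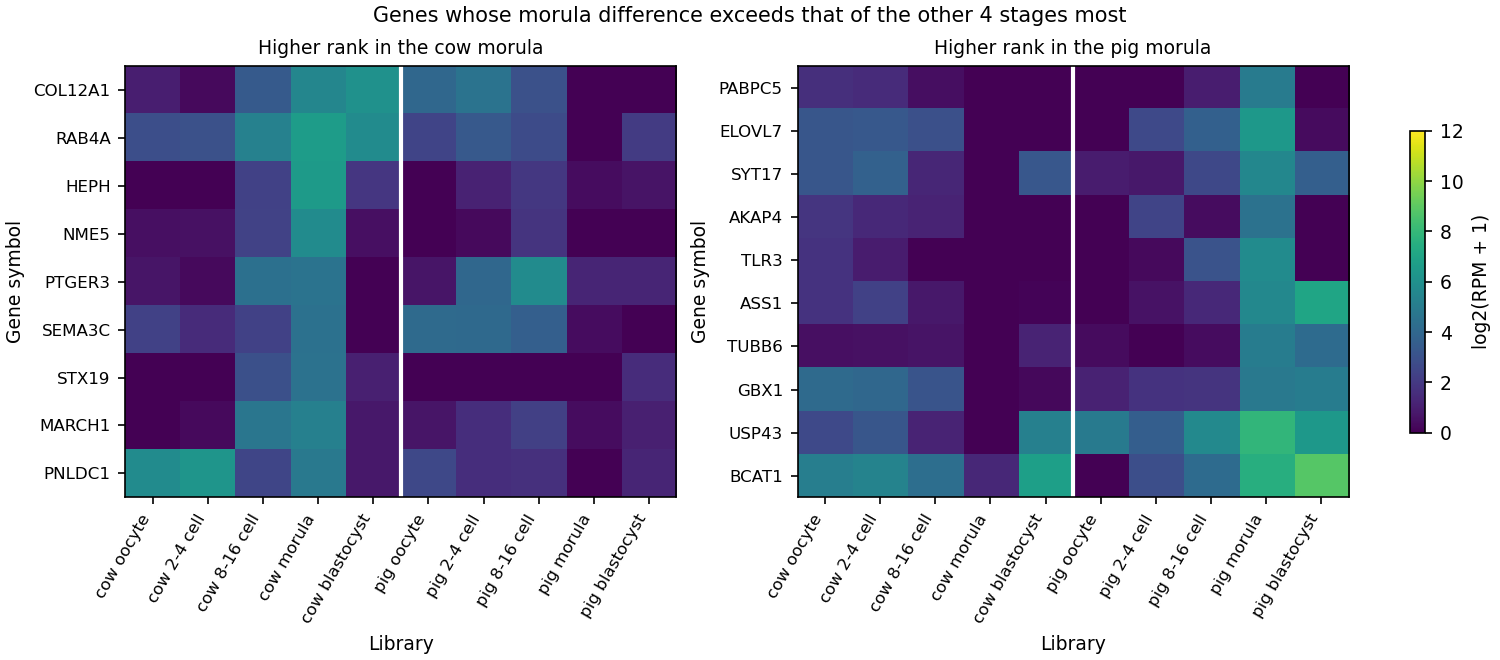
Level as log2(RPM + 1) in all 10 libraries of genes whose morula rank difference exceeds the mean difference of the other 4 stages most. Left, 9 of the 10 genes called for cow, such as HEPH (90.5 RPM in the cow morula); right, the 10 called for pig, such as ELOVL7 (83.9 RPM in the pig morula), which are dark in the cow morula column.

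Genes of the first lineages were examined beside the 18% of all compared genes that were called in either direction. Among 17 compared pluripotency factors 2 (11.8%) were called for cow and 0 for pig, with a median difference, cow minus pig, of 4.81 points beside 0.62 for all compared genes. NANOG, which keeps the epiblast pluripotent, stood at 0, 0, 116, 76.4 and 14.5 RPM in cow and 0, 2.42, 2.53, 2.66 and 0 RPM in pig. The cow 8-16 cell, morula and blastocyst libraries thus stood above every pig library. At the morula the ranks stood 35.5 points apart, on 298 reads in cow and 8 in pig, and the 95% intervals of 68.2 to 85.6 RPM and 1.35 to 5.26 RPM mark ranks that stayed apart. The other call, OTX2, had 2.31 RPM in cow and 0 in pig and shared no neighbour. SOX2 stood at 14.9 RPM in cow and 10.3 RPM in pig, KLF5 at 274 and 126 RPM, ESRRB at 101 and 321 RPM, and SALL4 at 45.4 and 170 RPM, each within 30 points.

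Among 17 compared trophectoderm genes 3 (17.6%) were called for cow and 2 (11.8%) for pig, with a median of -5.09 points. GRHL2, a grainyhead factor of epithelia, stood at 70.2, 79.3, 65.7, 174 and 125 RPM in pig and 0.609, 1.58, 3.31, 0.769 and 71.2 RPM in cow. Every pig stage was high, and cow came near only in the blastocyst. ELF5, an ETS factor of trophoblast, stood at 13.0 RPM in the pig morula and 12.3 RPM in the pig blastocyst, and at or below 0.676 RPM in cow at every stage. ID2, an inhibitor of basic helix-loop-helix factors, stood at 50.6, 83.1 and 19.2 RPM over the last 3 cow stages and at 0, 2.66 and 1.61 RPM in pig. The remaining calls, KRT7 and GRHL1, rested on 1.03 RPM in cow, which is 4 reads. TFAP2C stood at 119 RPM in cow and 502 RPM in pig, TEAD4 at 17.7 and 47.0 RPM, and DAB2 at 112 and 51.0 RPM, none of them called. GATA2, ELF3, EOMES, HAND1 and KRT8 were below 1 RPM in both morula libraries, and KRT18, at 1021 RPM in the cow and 2681 RPM in the pig blastocyst, stood at 0.769 and 4.66 RPM in the morulae.

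Among 12 compared primitive endoderm genes 2 (16.7%) were called for cow and 1 (8.33%) for pig, with a median of 5.24 points. GATA6, the factor that sets this lineage, stood at 0, 0, 35.0, 232 and 226 RPM in cow and 0, 4.83, 19.6, 234 and 261 RPM in pig. The courses were alike, with ranks 0.5 points apart at the morula. PDGFRA, the receptor that marks primitive endoderm precursors, stood at 4.46, 0, 198, 130 and 270 RPM in cow and 0, 1.21, 0.316, 1.33 and 3.75 RPM in pig. The 3 late cow libraries thus stood far above all pig libraries, and the morula ranks stood 44.8 points apart. SPARC, described above, was the other call for cow. SOX17, HNF4A and FOXA2 were below 1 RPM in both.

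**Figure D5:**
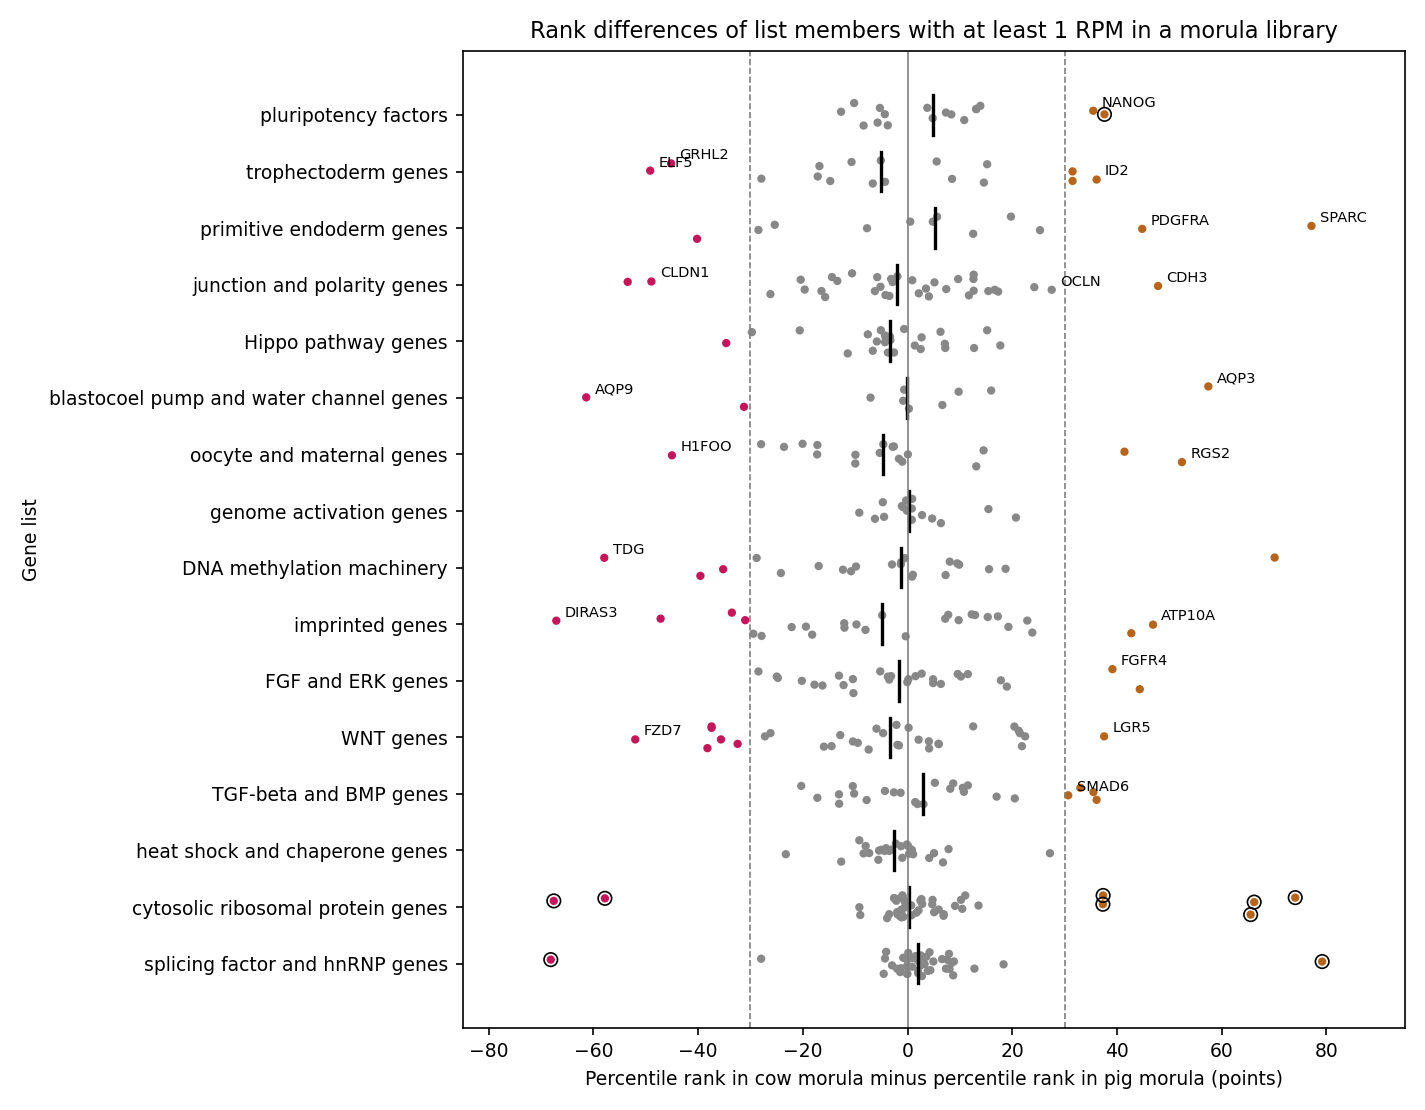
Rank difference at the morula, cow minus pig, of each compared member of 16 gene lists (1 point a gene; black bar, median of the list; dashed lines, 30 points either way). Coloured points are called, black rings mark pairs without a shared neighbour, and all 7 called cytosolic ribosomal protein genes carry a ring.

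Junction and polarity genes hold compacted cells together and orient them. Of 35 compared, 1 (2.86%) was called for cow and 2 (5.71%) for pig, beside 8.62% and 9.4% of all compared genes, with a median of -1.93 points. CLDN1, a claudin of tight junctions, stood at 91.8, 103, 111, 441 and 1.07 RPM in pig and at 5.07, 3.15, 0.736, 0.769 and 6.13 RPM in cow. The pig morula was the highest of the 10 libraries, and the ranks stood 48.9 points apart, with the cow value resting on 3 reads. CLDN7 stood at 2.53, 19.6 and 281 RPM over the last 3 pig stages and at 0, 0 and 7.69 RPM in cow. CDH3, P-cadherin, was called for cow at 6.92 RPM against 0, after 264 RPM at the cow 2-4 cell stage and before 24.7 RPM in the cow blastocyst. OCLN, occludin, stood at 92.6 RPM in cow and 6.99 RPM in pig, and PARD6B, of the apical PAR complex, at 11.8 and 892 RPM; both stayed within 30 points. Among their abundant core genes, CTNNB1 stood at 160 RPM in cow and 282 RPM in pig, CTNNA1 at 320 and 150 RPM, and TJP1 at 67.7 and 191 RPM.

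Of 25 compared Hippo pathway genes none was called for cow and 1 (4%) for pig, with a median of -3.36 points. The call, TEAD2, rested on 3.0 RPM in pig and 0 in cow. AMOT, the angiomotin that holds YAP1 at junctions, stood at 6.41 RPM in cow and 248 RPM in pig and lay just outside the rule. WWTR1, the coactivator TAZ, stood at 441 RPM in cow and 35.6 RPM in pig, and WWC2, a KIBRA relative, at 18.0 and 364 RPM. These 3 stood 17.7 to 29.7 points apart, and the kinases LATS1 and STK3 6.3 points or less.

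Of 10 compared genes for the pump and water channels that fill the blastocoel, 1 (10%) was called for cow and 2 (20%) for pig, with a median of -0.19 points. AQP3, an aquaglyceroporin, stood at 7.71, 5.41, 112, 765 and 151 RPM in cow and at 0, 0, 0, 0.333 and 73.5 RPM in pig. The cow morula was the highest library, and in pig the gene was read at a comparable level only in the blastocyst. The morula values rest on 2984 reads in cow and 1 in pig, 57.5 points apart or 52.1 at the floor. AQP9, another aquaglyceroporin, went the other way, at 0.296, 0.483, 0, 42 and 81.5 RPM in pig and 0 in all 5 cow libraries. The pig row of AQP9 spanned 54769 bases and overlapped the pig row of ALDH1A2, described above. Its cow row spanned 16662 bases and did not overlap another row. The part of this overlap in the pig level was not tested. AQP3 lies at chromosome 8, 76525369 to 76531334, in the cow table and at chromosome 10, 33045247 to 33053995, in the pig table.

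Oocyte and maternal genes stood at a median percentile of 68.5 in the cow morula and 73.9 in the pig morula. Of 19 compared, 2 (10.5%) were called for cow and 1 (5.26%) for pig, with a median of -4.62 points; 14 of the 19 ranked higher in pig. ZP2, a zona pellucida protein, had come down from 3261 RPM in the cow oocyte to 56.9 RPM in the cow morula, and from 1128 to 17.3 RPM in pig. BMP15, an oocyte growth factor, stood at 46.2 and 79.6 RPM and BTG4, which drives clearance of maternal RNA, at 22.1 and 34.0 RPM. RGS2, called for cow at 10.8 RPM against 0, had stood at 972 RPM in the cow oocyte and 261 RPM in the pig oocyte. H1FOO, the oocyte linker histone, was called for pig at 8.66 RPM against 0. It had stood at 104, 191 and 10.1 RPM in the earlier cow stages and 416, 142 and 205 RPM in the earlier pig stages, so the pig library at the 8-16 cell stage was still high. In the separate family of NLRP genes, 1 of 4 compared (25%) was called for cow and 0 for pig. This call was NLRP8, at 18.2 RPM in cow against 0.333 RPM in pig. NLRP9, at 3.85 and 29.6 RPM, was not called.

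Of 16 compared genes known to be switched on with the embryonic genome 0 were called in either direction, with a median of 0.35 points. Many of them ranked high in both libraries, where ranks are compressed, so the absence of calls does not show like levels. NCL stood at 732 RPM in cow and 1934 RPM in pig, HSPA8 at 752 and 1042 RPM, H3F3A at 380 and 1165 RPM, and EIF1AX at 383 and 734 RPM. Pig was the higher in level for all 4. The median rank of the 16 was 92.9 in cow and 93.7 in pig.

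Of 22 compared genes of the DNA methylation machinery, 1 (4.55%) was called for cow and 3 (13.6%) for pig, with a median of -1.25 points. TDG, the glycosylase that removes oxidised methylcytosine, stood at 0.406, 0.225, 0.368, 0 and 20.03 RPM in cow and between 28.3 and 55.1 RPM at all 5 pig stages. Pig was thus level over development, and cow came near only in the blastocyst. MBD3 was called for pig at 5.0 RPM against 0.

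The DNA methyltransferases ranked higher in pig without being called. DNMT1, which copies methylation at replication, stood at 25.9 RPM in cow and 362 RPM in pig, 17.0 points apart. DNMT3A stood at 1.03 and 21.0 RPM and DNMT3B, both of which set new methylation, at 3.59 and 91.6 RPM, 24.2 and 28.8 points apart. TET1, which oxidises methylcytosine, ranked higher in cow by 7.3 points, at 459 RPM against 110 RPM, and TET2 higher in pig, at 18.7 RPM in cow and 92.9 RPM in pig. UHRF1, the partner of DNMT1, stood at 9.75 and 2.00 RPM and UHRF2 at 285 and 541 RPM. TRIM28 and ZFP57, which hold methylation at imprinted loci, stood at 54.9 and 11.3 RPM in cow and 31.3 and 6.33 RPM in pig, less than 10 points apart. These members, unlike UHRF2 and TET1, fall outside the rule for naming genes and were chosen after their values were seen.

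Of 27 compared imprinted genes, 2 (7.41%) were called for cow and 4 (14.8%) for pig, with a median of -4.84 points. ATP10A, a phospholipid flippase gene, stood at 13.6, 20.3, 9.57, 62.1 and 45.8 RPM in cow and 0, 0, 3.47, 0.333 and 0.536 RPM in pig. OSBPL5 was called for cow at 4.10 RPM against 0. DIRAS3, a RAS-related growth inhibitor, stood at 2.37, 1.21, 0.316, 74.9 and 9.92 RPM in pig and at 0, 0.225, 0, 0 and 0 RPM in cow, 67.1 points apart at the morula or 38.9 at the floor. The pig morula was thus the only library above 10 RPM for DIRAS3. TFPI2, a protease inhibitor, came down in pig from 72.2 RPM in the oocyte to 10.7 RPM in the morula and held 0 reads in all 5 cow libraries. PPP1R9A stood at 63.1, 82.6, 120, 102 and 402 RPM in pig and 19.3, 24.3, 5.15, 3.08 and 44.0 RPM in cow. NNAT was called for pig on 2.66 RPM against 0. Of the others, PEG10 and CALCR stood at 1.80 RPM each in cow and 51.6 and 44.0 RPM in pig, and GRB10 at 32.6 RPM in cow and 4.66 RPM in pig, all within 30 points. UBE3A stood at 373 and 495 RPM, 0.4 points apart, and DLK1, MAGEL2 and SLC38A4 were below 1 RPM in both morulae. PEG10, CALCR and GRB10 were named after their values were seen.

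Histone methylation and polycomb genes leaned toward cow in rank, with a median of 2.77 points, 4 of 39 (10.3%) called for cow and 2 (5.13%) for pig. None of the 6 calls reached 6 RPM. Of the core of Polycomb repressive complex 2, none of these was called: EED at 221 RPM in cow and 292 RPM in pig, SUZ12 at 173 and 377 RPM, and EZH2 at 116 and 132 RPM. KDM6A, the H3K27 demethylase of the X chromosome, stood at 415 and 350 RPM. Among 12 compared histone genes 5 (41.7%) were called for cow and 1 (8.33%) for pig, with a median of 9.55 points; 17 more histone symbols were in the pig table alone and 10 in the cow table alone, so the pairing reached few of this family. Histone genes are near-identical copies whose reads the counting could split. H1F0, a replacement linker histone, was called for cow at 61.5 RPM against 2.00 RPM, while HIST1H1D stood at 10.8 RPM in cow and 303 RPM in pig, 25.2 points apart.

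WNT genes held the most calls of the WNT, FGF and TGF-beta lists, and theirs was also the longest of these lists. Of 32 compared, 1 (3.13%) was called for cow and 6 (18.8%) for pig, with a median of -3.38 points. Of all compared genes, 8.62% were called for cow and 9.4% for pig. With counts of 0 to 3 reads at the floor, 1 of the WNT calls stayed. LGR5, a receptor for R-spondins, stood at 0, 0.451, 191, 311 and 4.72 RPM in cow and 2.07, 9.91, 16.4, 4.66 and 0 RPM in pig. The cow 8-16 cell and morula libraries thus stood far above the rest, and the morula ranks stood 37.6 points apart. RSPO2, a ligand of LGR5, stood at 380 RPM in cow and 24.3 RPM in pig without being called. FZD7, a Frizzled receptor, stood at 23.4, 17.0 and 0.804 RPM over the last 3 pig stages and at 1.10, 0 and 0.141 RPM in cow. The other 5 calls for pig, WNT3, LRP5, FZD5, WNT3A and WNT9A, rested on 2.33 to 4.33 RPM against 0. Among the intracellular components, GSK3B stood at 371 and 379 RPM and APC at 196 and 153 RPM.

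Of 28 compared FGF and ERK genes 2 (7.14%) were called for cow and 0 for pig, with a median of -1.59 points. FGFR4, an FGF receptor, stood at 1.47, 25.9 and 20.8 RPM over the last 3 cow stages and stayed at or below 0.804 RPM in pig. FGF18 was called at 4.87 RPM against 0. FGFR2, another receptor, leaned to pig, at 1.80 RPM in cow and 46.6 RPM in pig, and was not called. Of 25 compared TGF-beta and BMP genes 4 (16%) were called for cow and 0 for pig, with a median of 3.05 points. Besides ID2, a BMP target, the calls were SMAD6, an inhibitor of BMP signalling, at 15.1 RPM against 0.666 RPM, and BMP2 and NODAL at 1.28 and 1.80 RPM against 0. The receptors TGFBR1 and ACVR1 stood less than 2 points apart, TGFBR1 at 87.7 RPM in cow and 88.9 RPM in pig.

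Metabolic lists are given beside the 18% of all compared genes called in either direction. Of 30 compared lipid genes 1 (3.33%) was called for cow and 3 (10%) for pig, with a median of -4.29 points, and 20 of the 30 ranked higher in pig. ELOVL1, a fatty acid elongase, was called for pig at 21.6 RPM against 0. PLIN2, which coats lipid droplets, stood at 38.5 RPM in cow and 317 RPM in pig, 12.8 points apart, and CPT1A, which brings fatty acids into mitochondria, at 31.0 and 421 RPM. Of 16 compared glycolysis genes 1 (6.25%) was called, SLC2A8 for cow at 3.59 RPM against 0, and the median was -0.35 points; LDHB stood at 30.8 RPM in cow and 1265 RPM in pig, 16.9 points apart. Of 20 antioxidant genes 2 (10%) were called each way. NQO1, a quinone reductase, stood at 24.1 RPM in cow and 0 in pig, PRDX6, a peroxiredoxin, at 0.513 RPM in cow and 49.3 RPM in pig, and TXN was called for cow without a shared neighbour.

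Of 42 compared cell cycle genes 4 (9.52%) were called for cow and 2 (4.76%) for pig, with a median of -0.80 points. The only one above 5 RPM in the higher library was WEE1, a kinase that restrains mitosis, at 42.1 RPM in cow and 0 in pig, and this pair shared no neighbour. CDK2 stood at 13.8 RPM in cow and 863 RPM in pig, 24.9 points apart, and PCNA, the replication clamp, at 111 and 646 RPM, 6.0 points apart. Of 18 apoptosis genes 1 (5.56%) was called, for pig: FAS, a death receptor, stood at 29.97 RPM in the pig morula and 58.4 RPM in the pig blastocyst and at 0 and 8.46 RPM in cow. None of 26 heat shock and chaperone genes, 9 X inactivation and dosage genes or 21 V-ATPase and cathepsin genes was called. CDK2 and CPT1A were named after their values were seen.

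Subunits of large complexes were called both with and without shared neighbours. Of 46 compared cytosolic ribosomal protein genes 5 (10.9%) were called for cow and 2 (4.35%) for pig, and none of these 7 pairs shared a neighbour. RPL5, RPS12 and RPL19 stood at 228 to 289 RPM in cow and 430 to 564 RPM in pig. Both calls among 43 splicing factor genes, HNRNPF and SNRPE, also lacked a shared neighbour, as did 3 of the 7 among 48 respiratory chain genes. Of the respiratory calls with shared neighbours, NDUFB10, a subunit of complex I, stood at 1.28 RPM in cow and 140 RPM in pig, NDUFV3 at 46.9 and 2.00 RPM, and COX6A2 and COX7A1, the muscle-type subunits of cytochrome oxidase, at 0 RPM in cow and 16.7 and 12.7 RPM in pig. Of 35 proteasome genes 1 (2.86%) was called, for pig, of 54 mitochondrial ribosomal protein genes 2 (3.7%), both for cow, and of 40 translation initiation factor genes 1 (2.5%), EIF4EBP3, at 176 RPM in cow and 0.666 RPM in pig. The cow row of EIF4EBP3 spanned 112909 bases and overlapped another row, and its pig row spanned 1858. The pig rows of NDUFB10, COX6A2 and COX7A1 overlapped another row too, and that of COX6A2 spanned 21748 bases against 624 in cow.

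The families drawn by their symbols are given beside the 8.62% of all compared genes called for cow and the 9.4% called for pig. Among them, zinc finger ZNF genes gave 13 calls of 187 (6.95%) for cow and 22 (11.8%) for pig. ZNF608 stood at 277, 343 and 28.1 RPM over the last 3 cow stages and 26.2, 3.33 and 20.9 RPM in pig, and ZNF454 at 4.62 RPM in the cow morula and 722 RPM in the pig morula. Solute carriers gave 21 of 208 (10.1%) for cow and 28 (13.5%) for pig. SLC8A1, the sodium-calcium exchanger, stood at 703 RPM in the cow morula and 9.99 RPM in the pig morula, where it had come down from 119 RPM at the 8-16 cell stage. SLC1A5, a glutamine transporter, stood at 485, 261 and 31.4 RPM over the last 3 cow stages and 24.3, 3.0 and 5.09 RPM in pig. SLC30A1, a zinc exporter, stood at 7.44 RPM in cow and 464 RPM in pig, and SLC2A2, a glucose transporter of liver and gut, at 0, 1.58, 24.0 and 170 RPM from the 2-4 cell stage on in pig and at 0 in all 5 cow libraries. Collagen and laminin genes gave 1 of 24 (4.17%) for cow, COL12A1, and 7 (29.2%) for pig, with a median of -9.59 points. Apart from COL14A1, at 1.54 RPM in cow and 93.2 RPM in pig and at 449 RPM in the pig oocyte, none of the collagen calls for pig passed 15 RPM.

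Markers of cells other than the embryo's were examined in both libraries. Of 20 cumulus cell markers, which would show follicle cells left around the embryo, 8 were compared and 8 were below 1 RPM in both libraries. The summed level of the compared markers was 60.01 RPM in cow and 402 RPM in pig. VCAN made up most of the pig sum, at 338 RPM against 22.1 RPM in cow. FSHR, the receptor for follicle-stimulating hormone, stood at 11.8 RPM in cow and 2.33 RPM in pig, STAR at 14.9 and 13.3 RPM, and AMHR2 at 1.54 and 24.98 RPM. LHCGR, in the cow table alone, stood at 6.92 RPM. PTX3, TNFAIP6, INHA and GREM1 were at 0 in both libraries. VIM was the only call, for pig, at 2.33 RPM against 0. Of 13 paired blood and fibroblast markers, 7 were below 1 RPM in both. The sum of the 6 compared was 34.1 RPM in cow, led by DCN at 24.1 RPM, and 17.0 RPM in pig. HBB, a haemoglobin gene, was at 0 in both. The part of such cells in the calls was not tested.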

How the data were processed

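Total RNA of oocytes and embryos was isolated with a kit for small samples, copied into amplified cDNA with a low-input kit and amplified by 8 cycles of PCR, per the labels' protocols. Trim Galore 0.6.4 and HISAT2 2.1.0 and the builds UMD3.1 (cow) and Sscrofa11.1 (pig) are named in the submitters' processing notes, without their roles; the counting method, the annotation and the handling of strand are not given in the sources used here. The deposited tables hold log2 values, 1 per gene and stage. On the linear scale, every value above a column's lowest is a whole number of reads within 0.01 of a read, and the lowest equals 0.9 of a read, so the deposited log2 values were read as log2 RPM with 0 reads written as 0.9. RPM is not divided by gene length.

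Values were turned into reads and RPM (Python 3.11.15, numpy 2.4.6, pandas 2.3.3, scipy 1.17.1), and percentile ranks, ties averaged, were taken over all rows of a table. Rows were paired by identical symbol, leaving out 4144 cow and 5666 pig rows with an identifier only; of repeated symbols the row with the highest mean was kept. Genes with at least 1 RPM in one of both morula libraries were compared and called at 30 points or more. Ranks and calls were also run on simulated data. The outcome is not reported here, and no conclusion is drawn from it. No test between groups was possible with 1 library a group.

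The members, the 23 gene lists and the 17 symbol families were chosen with earlier results of these data known. Genes were named by rule: the 15 largest differences a direction at 20 RPM or more; the 10 highest paired symbols of each library; the 10 a direction whose morula difference exceeds the mean of the other 4 stages most; list members called at 5 RPM or more, with up to 4 uncalled members of highest rank a list; and the 10 of highest rank within 2 points. The count of shared neighbours, and the 15 largest differences among pairs that share one, were added after seeing the data, as was the setting with counts at the floor. Some genes that the rule names are not reported here. Called list members below 5 RPM, and other members named with their values, were also named after their values were seen. Alternatives were ranks among paired symbols, other minimum levels and thresholds, quantile-normalised log2(RPM + 1), cow reads thinned to the pig total, and pairs left out for repeated symbols, overlap, span, reads or neighbours.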

Additional observations from a re-analysis of the deposited data

Results flagged for a closer look

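Rows without a partner symbol were in no comparison, and they held 26.5% of the gene reads of the cow morula library and 21.0% of those of the pig morula library. Without the mitochondrial rows these shares were 18.8% and 18.6%. Such rows at 20 RPM or more numbered 989 in cow and 1045 in pig.

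For 12 of the genes with the largest excess of the morula difference over the other stages, the change from the 8-16 cell stage to the morula went up in one species and down in the other by at least 1 unit of log2(RPM + 1). Each change compares 1 library with 1 library, and the difference between species was not tested. In cow the level was higher at the morula and in pig lower for HEPH (4.18 in cow and -1.53 in pig, a difference of 5.71), SEMA3C (2.16 and -3.21, a difference of 5.37), NME5 (3.41 and -1.82, a difference of 5.23), COL12A1 (2.15 and -2.99, a difference of 5.14), RAB4A (1.36 and -2.74, a difference of 4.10) and PNLDC1 (2.36 and -1.68, a difference of 4.04). The opposite held for BCAT1 (-2.97 in cow and 3.34 in pig, a difference of -6.31), GBX1 (-3.13 and 3.04, a difference of -6.16), ELOVL7 (-2.93 and 2.71, a difference of -5.64), AKAP4 (-1.19 and 4.11, a difference of -5.30), SYT17 (-1.31 and 2.98, a difference of -4.28) and USP43 (-1.19 and 2.26, a difference of -3.46). The genes were picked for their morula difference, so opposite changes are partly set by that choice.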

How the results depend on the processing

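No paired analysis was possible because each group held 1 library. The 866 calls for cow and 944 for pig came to 387 and 578 at 5 RPM or more, 202 and 300 at 20 RPM or more, 219 and 235 with 0 to 3 reads at the floor, 1335 and 1498 at a threshold of 20 points, 409 and 446 at 40 points, and 1548 and 1555 on quantile-normalised log2(RPM + 1) with a threshold of 2. The calls for pig came to 613 without overlapping genes and 545 without spans differing over 2-fold. The rank correlation of 0.617 became 0.518 at 5 RPM or more, 0.359 at 20 RPM or more, 0.745 with no minimum and 0.676 without the differing spans. Other settings kept both counts within 1.5 times. Like counts did not always mean the same genes. Ranks among the paired symbols only gave 817 calls for cow and 974 for pig, of which 620 and 745 were main calls. Of the calls on quantile-normalised values, 578 for cow and 707 for pig were main calls. Calls for cow made up 47.8% of all calls, and 40.1% to 55.7% over the settings. Of the 168 called genes that were named, none changed direction in the settings that kept them. Leaving out overlapping genes kept 115 of them, and leaving out spans differing over 2-fold kept 95. With 0 to 3 reads at the floor 61 fell under 30 points. Among these were ELF5 (20.9 points at the floor), CLDN7 (25.2), CDH3 (20.4), FZD7 (23.8), H1FOO (16.8), ELOVL1 (26.3) and FAS (29.7). With cow reads thinned 2 fell under 30 points, and with mitochondrial and ribosomal genes left out 1. The list medians of the blastocoel, respiratory chain, apoptosis and ribosomal genes changed sign in 5 or 6 settings. Those of the WNT and genome activation genes did so in 3. Those of the imprinted, junction and polarity, FGF and ERK, TGF-beta and BMP, and glycolysis genes did so in 2. The medians of the collagen and laminin, DNA methylation and cell cycle genes did so in 1. Depth limits the calls: in either morula library a gene at 0 reads may lie as high as the floor, percentile 49.9 in cow and 47.6 in pig.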

Other observations

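Genes of the lists whose symbol stands in 1 table alone have a level in that species only. In the cow morula, POU5F1, the core pluripotency factor, stood at 17.4 RPM, KLF4 at 188 RPM, DPPA3, which guards maternal methylation, at 194 RPM, and CDH1, the cadherin of compaction, at 166 RPM. SLC2A3, a glucose transporter, stood at 860 RPM, CCNA2 at 154 RPM and SNRPN, an imprinted gene, at 123 RPM, while IGF2 and KRT19 had 0 reads. In the pig morula, CDX2, the trophectoderm factor, had 0 reads, YAP1, the Hippo effector, stood at 92.2 RPM, KLF17 at 70.6 RPM, MYCN at 104 RPM and CTCF, the insulator protein, at 108 RPM. Of imprinted symbols in the pig table alone, ZIM3 stood at 185 RPM, USP29 at 87.9 RPM and PEG3 at 15.3 RPM. These genes were chosen after their values were seen and say nothing of the other species.

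Mapping older symbols to current ones renamed 811 cow and 297 pig rows and added 112 pairs. NECTIN2, a nectin of adherens junctions whose symbol differs between the tables, then stood at 0 RPM in the cow morula and 35.6 RPM in the pig morula. CTSV, a cathepsin, stood at 1135 RPM in cow and 36.6 RPM in pig, 18.2 points apart, and AGO2, the slicing Argonaute, at 64.4 and 30.6 RPM.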
